A study of Mus musculus with 9 samples.

Results

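Small leucine-rich proteoglycans (SLRPs) are secreted matrix proteins, and the expression of 10 of their genes was followed in quiescent mouse embryonic fibroblasts (MEFs) that differed in Cdkn1b, which encodes p27, an inhibitor of the cell cycle. The 10 genes were taken by symbol from the platform annotation (Dcn, Bgn, Aspn, Fmod, Lum, Kera, Prelp, Omd, Ogn and Epyc) out of 19937 genes with a probe set of their own. A gene's probe set was selected on its mean level over all 9 arrays, but each of these genes had 1 probe set, so brightness decided nothing here. The family was proposed with earlier results of these arrays known, so its values describe these arrays and are not independent evidence of a pattern in the family. Genes were tested if their mean over the arrays reached the 40th percentile, which is a log2 value of 7.24 and is called the filter level here; 9 of the 10 genes did, all but Epyc.

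The groups were wild-type cells (WT), p27CK cells (CK) and p27KO cells (KO), with 3 Affymetrix arrays each. In published work p27CK stands for a p27 protein that no longer binds cyclins and their kinases, whereas the labels give only the name. The protocol for all samples also mentions delta51 mice without saying which cells they gave, and strain, age and number of embryos are not stated. All cultures were grown with 10% serum and then kept without serum for 72 h, which makes fibroblasts leave the cell cycle. The labels do not tell whether separate cultures or embryos stand behind the arrays of a group. Every p-value therefore rests on the spread between arrays alone, possibly a technical spread, and effects of genotype and of culture cannot be told apart.

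SLRPs carry a short protein core built of leucine-rich repeats, which in many members binds collagen and governs how fibrils grow and how thick they become. Most carry chains of chondroitin, dermatan or keratan sulfate, and several bind growth factors and cell-surface receptors. Fibroblasts of skin, tendon and other connective tissue are among their main sources. Decorin, biglycan and asporin form class I of the family, fibromodulin, lumican, keratocan, PRELP and osteomodulin class II, and osteoglycin and epiphycan class III.

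Values are the authors' log2 expression values after RMA (a background correction, a quantile normalization between arrays and a summary over the probes of a probe set), with a lost decimal mark restored. Levels of different genes are not compared, since probes differ in brightness. Array medians lay between 7.29 and 7.40. Cdkn1b itself read 11.42, 11.50 and 11.47 in WT, 10.99, 11.14 and 11.16 in CK, and 7.44, 7.25 and 7.45 in KO, so the KO arrays lay below all others, close to the filter level. Of the fibroblast markers, Vim and Pdgfrb were bright in each genotype, with means of 13.85 to 14.01 and 12.93 to 13.63, while the means of Thy1 in WT, CK and KO were 11.73, 11.69 and 7.14, and of 9 tested markers of the list 8 were called lower in KO than in WT (7 lower and 1 higher after median centring) and 5 lower in CK than in WT, against 24.6% and 32.1% of all genes. Ptprc, Adgre1, Pecam1 and Epcam, which mark leukocytes, macrophages, endothelium and epithelium, had means below 7.24 in every genotype. Some other markers of these cells were brighter in at least 1 genotype and differed between genotypes. Cd68 of macrophages had means of 10.64, 8.59 and 7.99 in WT, CK and KO, and Lyz2 of 6.90, 7.59 and 8.83. Tek of endothelium had means of 8.77, 6.51 and 6.80. Cdh1 of epithelium, which was too dim to be tested, had means of 6.77, 6.68 and 7.51. The tested epithelial markers Krt8 and Krt18 were called in no comparison. In each of these 3 lists 4 of 6 genes had a mean under the filter level. The summed log2 signal of the macrophage list was 10.92 to 11.04 in WT, 9.77 to 9.86 in CK and 9.91 to 10.14 in KO, that of the endothelial list 9.84 to 10.0, 9.20 to 9.25 and 9.21 to 9.24, and that of the epithelial list 9.49 to 9.61, 9.47 to 9.57 and 9.63 to 9.70; their part in the members' values was not tested.

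The family had no common direction. Fmod was higher in both mutants than in WT, Kera was high in CK alone, Omd was low in CK alone, and Prelp was lowest in CK and highest in KO. These 4 genes had genotype means that spanned at least 1 on the log2 scale, as did 18.6% of all tested genes. Dcn, Aspn, Ogn and Lum differed by less, and Bgn hardly differed. In this bulk RNA a smaller number of cells expressing a gene and less RNA per cell cannot be told apart.

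**Figure D1:**
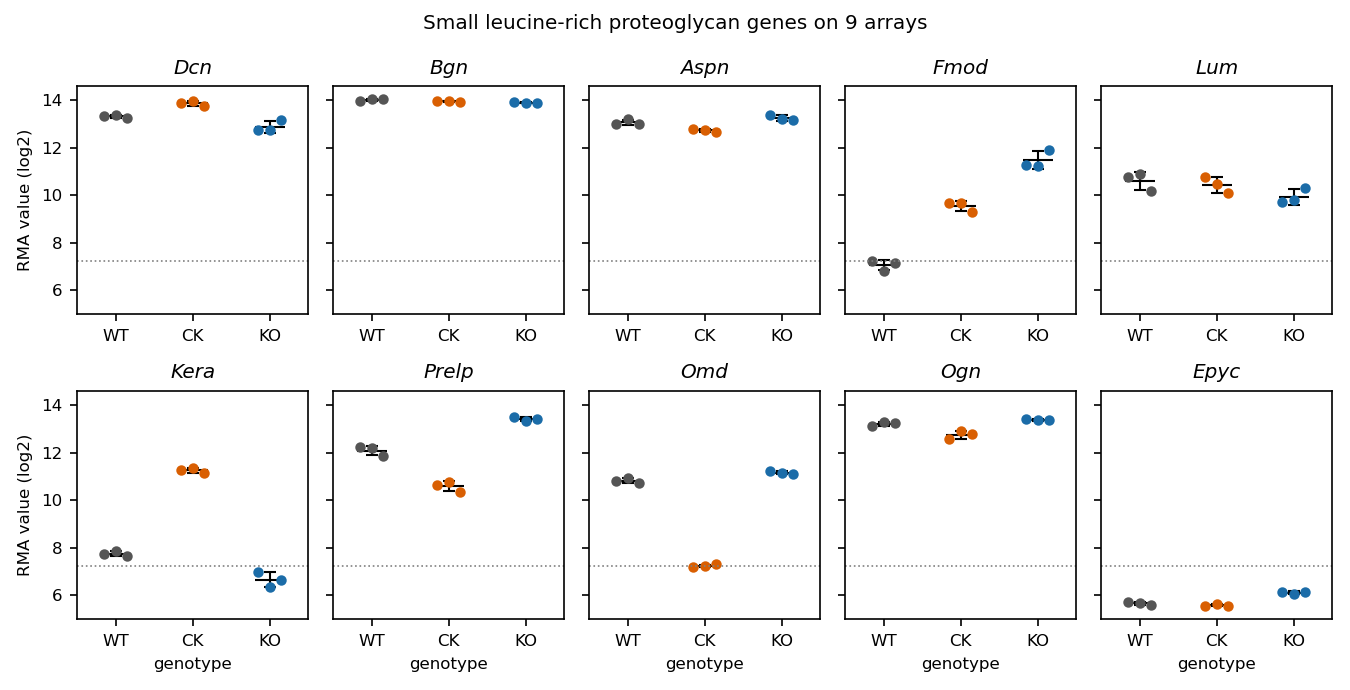
Log2 RMA values (y axis) of the 10 genes by genotype (x axis), with 1 point per array, bars for the mean and SD of 3 arrays, and a dotted line at the filter level of 7.24. Fmod rises from WT over CK to KO, Kera stands out in CK, Omd lies at the dotted line in CK, and Epyc lies below it throughout; levels should be compared within a panel only.

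Fmod encodes fibromodulin, a keratan sulfate proteoglycan that binds collagen type I and takes part in fibril maturation and tendon formation. It read 7.22, 6.82 and 7.15 in WT, 9.66, 9.68 and 9.29 in CK, and 11.27, 11.22 and 11.90 in KO. The 3 genotypes did not overlap, and WT lay just below the filter level, so Fmod passed the filter through the mutants. KO exceeded WT by 4.41 (SE 0.18, limma adjusted p = 1.25e-08), a 21.2-fold difference of the measured values, at the 99.7th percentile of difference sizes among tested genes. CK exceeded WT by 2.49 (SE 0.18, limma adjusted p = 8.3e-07), or 5.6-fold, and lay below KO (log2 difference -1.92, adjusted p = 5.61e-06). Background compresses differences near the filter level, so these folds are not those of the RNA. The 250 bases before the start of Fmod are shown because Fmod changed most in KO within the family; they come from the RefSeq promoter table of build GRCm38.p6, at chr1:134037004-134037253 on the plus strand.
Fmod: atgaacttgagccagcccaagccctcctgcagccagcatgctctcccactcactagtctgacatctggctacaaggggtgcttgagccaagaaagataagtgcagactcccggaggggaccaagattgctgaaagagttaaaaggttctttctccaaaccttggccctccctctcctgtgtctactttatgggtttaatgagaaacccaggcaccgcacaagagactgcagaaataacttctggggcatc
A script searched both strands for 5 motifs, and capitals would mark a match. They were the TATA box with the letters TATAAA, the pentamer CCAAT of the box of that name, the AP-1 site with the letters TGANTCA, the core bound by SOX factors with the letters AACAAT, and the GC box with the letters GGGCGG. The Fmod window holds none of these letters, from which nothing follows about the factors.

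Kera encodes keratocan, a keratan sulfate proteoglycan best known from the cornea. It read 7.74, 7.86 and 7.65 in WT, 11.26, 11.37 and 11.13 in CK, and 7.0, 6.35 and 6.63 in KO. All CK arrays lay over 3 log2 units above every other array, and the KO arrays lay below the filter level. The mean over the WT and KO arrays also lay below that level, so Kera passed the filter through CK. CK exceeded WT by 3.50 (SE 0.14, limma adjusted p = 7.75e-09), or 11.3-fold, and exceeded KO by 4.59 (adjusted p = 8.66e-10), the largest difference of any member in any comparison. KO was below WT (log2 difference -1.09, adjusted p = 7.68e-05), between levels that both lie near background.

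Prelp encodes a proteoglycan with a basic, heparin-binding end that anchors basement membranes to connective tissue. Its values were 12.22, 12.20 and 11.85 in WT, 10.64, 10.75 and 10.36 in CK, and 13.50, 13.33 and 13.43 in KO. No 2 genotypes overlapped, and the order was CK, WT, KO. Prelp fell by 1.5 in CK against WT (SE 0.12, limma adjusted p = 1.29e-06) and rose by 1.33 in KO against WT (SE 0.12, adjusted p = 4.48e-06). Set directly against each other, CK lay below KO (log2 difference -2.84, adjusted p = 8.12e-09), a 7.14-fold difference at levels well above the filter.

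Omd encodes osteomodulin, also called osteoadherin, a keratan sulfate proteoglycan of mineralized tissue that binds cells through an integrin. It read 10.82, 10.92 and 10.72 in WT, 7.20, 7.23 and 7.30 in CK, and 11.22, 11.15 and 11.10 in KO. The CK arrays sat at the filter level, while WT and KO lay more than 3 units above it. Omd fell by 3.58 in CK against WT (SE 0.06, limma adjusted p = 3.71e-11), which is 12-fold in measured values, and it was 15.1-fold lower in CK than in KO (adjusted p = 2.63e-11). KO exceeded WT by 0.34 (adjusted p = 0.00117).

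Lum encodes lumican, which limits the thickness of collagen fibrils in skin and cornea. It read 10.77, 10.89 and 10.17 in WT, 10.76, 10.49 and 10.11 in CK, and 9.71, 9.79 and 10.30 in KO. Replicate 3 stood apart from the other arrays in WT and in KO, toward the other genotype, and WT, CK and KO overlapped. The limma test called Lum lower in KO than in WT (log2 difference -0.68, SE 0.22, adjusted p = 0.0255). The call did not hold when 1 array was left out, with an adjusted p of 0.0896 without WT replicate 1, 0.0988 without WT replicate 2, 0.0921 without KO replicate 1 and 0.0803 without KO replicate 2. It did not hold with no filter on low values either (adjusted p = 0.0528). CK differed from WT by -0.16 (95% interval -0.65 to 0.33, limma adjusted p = 0.564). CK differed from KO by 0.52 (95% interval 0.03 to 1.01, adjusted p = 0.0628), which passed the threshold without WT replicate 3 (adjusted p = 0.0323), CK replicate 3 (0.0269) or KO replicate 3 (0.0188).

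Dcn encodes decorin, which carries a chondroitin or dermatan sulfate chain, coats collagen fibrils and binds TGF-beta and the EGF receptor. It read 13.33, 13.37 and 13.25 in WT, 13.89, 13.97 and 13.75 in CK, and 12.73, 12.75 and 13.16 in KO. The order was KO, WT, CK with no overlap, although KO replicate 3 came within 0.1 of the lowest WT array. Dcn rose by 0.55 in CK against WT (SE 0.11, limma adjusted p = 0.00112) and fell by 0.43 in KO against WT (SE 0.11, adjusted p = 0.00688). CK exceeded KO by 0.99 (adjusted p = 1.72e-05), or 1.98-fold.

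Bgn encodes biglycan, the close relative of decorin, which carries a pair of chains and can act on Toll-like receptors. It read 13.96, 14.05 and 14.04 in WT, 13.95, 13.99 and 13.94 in CK, and 13.91, 13.90 and 13.90 in KO, while the highest value on any array was 14.4. All 9 values lay within a narrow band near the top of the scale, where arrays can compress differences. KO differed from WT by -0.12 (95% interval -0.22 to -0.01, limma adjusted p = 0.0694), CK from WT by -0.06 (-0.17 to 0.05, adjusted p = 0.292) and CK from KO by 0.05 (-0.05 to 0.16, adjusted p = 0.359). These intervals hold no difference as large as those of Dcn. The KO difference has no settled call or sign, since it passed the threshold when quantile normalization was applied again (-0.17, adjusted p = 0.00921) and was 0.00 when each array was centred on its median (adjusted p = 0.994).

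Aspn and Ogn, which lie on either side of Omd on chromosome 13, were bright in all cells and moderately lower in CK. Aspn encodes asporin, which binds collagen and TGF-beta, and Ogn encodes osteoglycin, also called mimecan, which takes part in collagen fibril formation. Aspn read 13.0, 13.20 and 13.01 in WT, 12.78, 12.73 and 12.67 in CK, and 13.39, 13.22 and 13.15 in KO. Ogn read 13.10, 13.28 and 13.24 in WT, 12.56, 12.90 and 12.77 in CK, and 13.43, 13.36 and 13.38 in KO. In both genes every CK array lay below every WT and KO array. Aspn fell by 0.34 in CK against WT (SE 0.08, limma adjusted p = 0.00278) and Ogn fell by 0.46 (SE 0.09, adjusted p = 0.000749). In KO both were 0.18 above WT and neither was called, with 95% intervals of 0.01 to 0.35 for Aspn (adjusted p = 0.0714) and -0.01 to 0.37 for Ogn (adjusted p = 0.0991). Both were called after median centring (each 0.30 above WT, adjusted p = 0.00962 and 0.0146).

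Epyc encodes epiphycan, a proteoglycan of growth plate cartilage. It read 5.72, 5.68 and 5.59 in WT, 5.57, 5.63 and 5.55 in CK, and 6.16, 6.04 and 6.13 in KO. The KO arrays lay above all others, by 0.45 over WT and 0.53 over CK in the mean. Every value lay below the filter level, so Epyc was tested only in a refit with no filter, and its signal may be background.

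Counted over the tested members, the share called was close to that of the whole array. In KO against WT the limma test, with Benjamini-Hochberg adjustment over all 11962 genes, called 3 of the 9 tested members higher (Fmod, Prelp and Omd) and 3 lower (Dcn, Lum and Kera), against 51.2% of all tested genes called. In CK against WT it called 3 higher (Fmod, Kera and Dcn) and 4 lower (Aspn, Prelp, Omd and Ogn), against 62.9% of all genes. In CK against KO it called 2 higher (Dcn and Kera) and 5 lower (Aspn, Fmod, Prelp, Omd and Ogn), against 62.2% of all genes. In this limma fit these shares are near the background, so its number of calls sets the family apart in none of the comparisons. Differences of at least 1 on the log2 scale were called for 3, 4 and 4 members, against 8.77%, 10.8% and 12.4% of all tested genes. The median size of a member's difference was 0.43, 0.55 and 0.99, against 0.20, 0.28 and 0.27 over all genes tested. The family was chosen with these results known, Fmod passed the filter through the mutants and Kera passed it through CK. These figures therefore describe the members only. The comparisons share arrays, so the counts are not independent of each other.

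**Figure D2:**
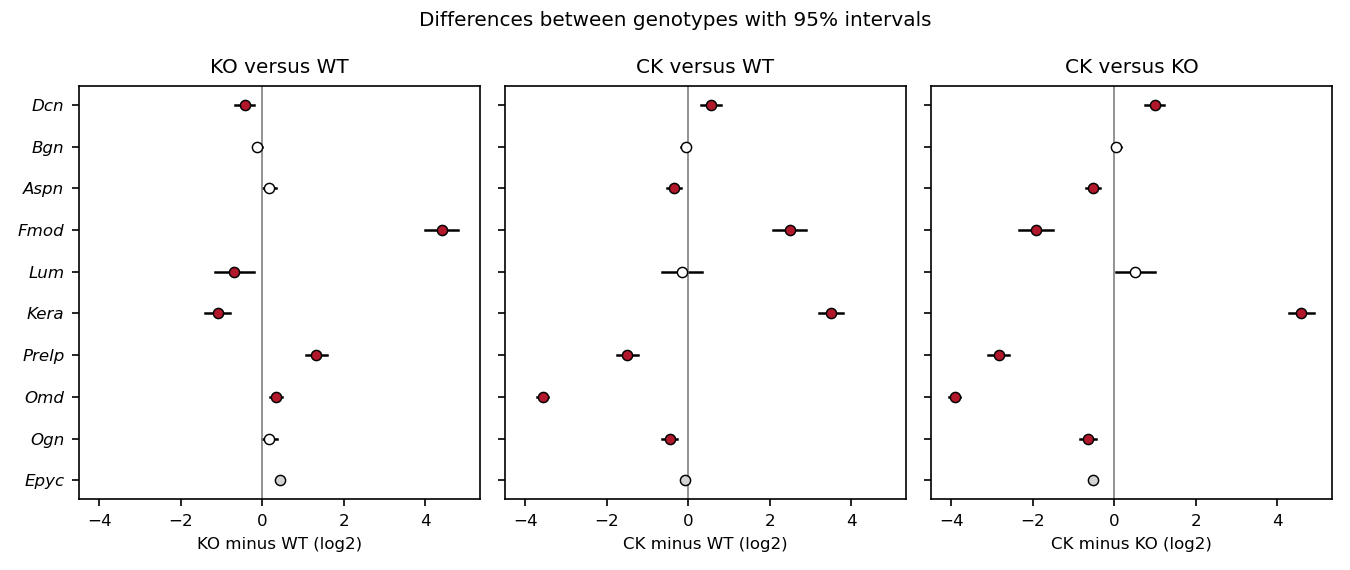
Differences between genotype means (x axis, log2) for each gene (y axis) in the 3 comparisons. Lines are 95% intervals from limma, red points passed an adjusted p of 0.05, white points did not, and the grey points of Epyc were not tested; Fmod, Kera, Prelp and Omd reach furthest from 0, in different directions.

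Arrays of KO and WT did not overlap for 7 of the 9 tested members, against 60.9% of all tested genes. For CK and WT it was 7 of 9 against 67.3%, and for CK and KO 8 of 9 against 67.5%. An exact permutation test of 3 arrays against 3 cannot give a two-sided p under 0.1. Of all genes called in KO against WT, 51.9% were higher in KO, and 70.6% after median centring, which moved the median difference of all genes from 0.015 to 0.13. Relative to that median, the members' differences of 0.34 or more in either direction kept their sign.

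Of the members, 9 lie in clusters that are known remnants of old gene duplications, and expression did not follow the clusters in a uniform way. In the gene table Prelp and Fmod are neighbours on chromosome 1, beside Optc (opticin). Dcn, Lum, Kera and Epyc lie in a row on chromosome 10, and Aspn, Omd and Ogn lie in a row on chromosome 13, beside Ecm2, which encodes a related leucine-rich repeat protein. Bgn lies alone on chromosome X.

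On chromosome 13 the row of 4 genes was lower in CK throughout. Levels of Ecm2 in WT, CK and KO were 9.32 ± 0.13, 6.25 ± 0.09 and 10.03 ± 0.18 (SD, n = 3), and it fell by 3.07 in CK against WT (SE 0.10, limma adjusted p = 1.36e-09). Aspn fell by 0.34, Omd fell by 3.58 and Ogn fell by 0.46, as given above, with Aspn and Ogn lying near the bright end of the scale. The genes that follow went the other way, as Nol8, a nucleolar protein gene, rose by 0.68 in CK and Iars, an isoleucyl-tRNA synthetase gene, by 0.89 (limma adjusted p = 4.07e-06 and 1.45e-07). The gene table places Ecm2, Aspn, Omd and Ogn inside the interval of Cenpp, a centromere protein gene, whose own probe set read 5.91, 5.96 and 5.90 in WT, CK and KO, below the filter level. Among the difference sizes of tested genes in CK against WT, Aspn lay at percentile 56.4, Omd at 99.5 and Ogn at 67.1. Because these members were all called lower in CK, though by unlike sizes, the 250 bases before each start are shown. They come from the same RefSeq table (GRCm38.p6, plus strand), at chr13:49544193-49544442 for Aspn, chr13:49582212-49582461 for Omd and chr13:49607765-49608014 for Ogn.
Aspn: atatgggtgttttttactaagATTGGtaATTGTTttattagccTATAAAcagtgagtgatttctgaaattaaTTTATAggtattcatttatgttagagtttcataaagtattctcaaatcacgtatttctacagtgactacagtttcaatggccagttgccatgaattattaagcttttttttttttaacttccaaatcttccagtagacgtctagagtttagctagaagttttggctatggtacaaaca
Omd: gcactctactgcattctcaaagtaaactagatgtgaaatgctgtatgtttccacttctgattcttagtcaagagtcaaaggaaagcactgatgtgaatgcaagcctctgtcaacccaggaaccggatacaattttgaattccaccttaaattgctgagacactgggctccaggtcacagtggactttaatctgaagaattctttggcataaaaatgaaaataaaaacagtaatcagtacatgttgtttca
Ogn: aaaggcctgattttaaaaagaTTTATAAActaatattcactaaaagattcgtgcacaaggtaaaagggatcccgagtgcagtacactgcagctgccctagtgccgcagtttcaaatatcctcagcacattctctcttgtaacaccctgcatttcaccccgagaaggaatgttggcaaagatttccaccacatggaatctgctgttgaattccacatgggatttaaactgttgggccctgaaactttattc
Capitals mark matches to the same 5 motifs on either strand. The Aspn window holds TATA box letters at 207 and 178 bases before the start, CCAAT box letters at 229 and the SOX core at 222, and the Ogn window holds a pair of overlapping TATA box matches at 229 and 227. The Omd window holds none of them, so these windows share no motif of the 5 across all 3 genes. Over 32851 RefSeq promoter windows of this length, the TATA box letters occurred in 12.4%, those of the CCAAT box in 33.8%, of the AP-1 site in 6.75%, of the SOX core in 9.42% and of the GC box in 32.7%. The windows of Aspn, Omd and Ogn were 30.0%, 38.4% and 42.0% G and C, against a median of 52.4% over all windows. A match is a string of letters and does not show that a factor binds.

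On chromosome 10 neighbouring members went separate ways. In CK against WT, Dcn rose by 0.55 and Kera by 3.50, while Lum, which lies between them, differed by -0.16 and was not called. In KO against WT all 3 were called lower, the call for Lum with the limits given above. Btg1, an antiproliferative gene just before Dcn, rose by 0.56 in CK (limma adjusted p = 4.44e-05), a size like that of Dcn, and differed by -0.06 in KO (adjusted p = 0.476). On chromosome 1 Prelp and Fmod, direct neighbours, moved in opposite directions in CK and both rose in KO. Optc beside them read 7.54, 7.52 and 7.60 in WT, CK and KO and was called in no comparison (limma adjusted p = 0.517, 0.718 and 0.283), while Btg2, beyond Fmod, rose by 1.62 in KO and 0.81 in CK (adjusted p = 3.15e-07 and 4.83e-05). Of the 13 tested flanking genes of all 4 loci, 10, 10 and 8 were called in KO against WT, CK against WT and CK against KO, against the 51.2%, 62.9% and 62.2% of all genes.

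**Figure D3:**
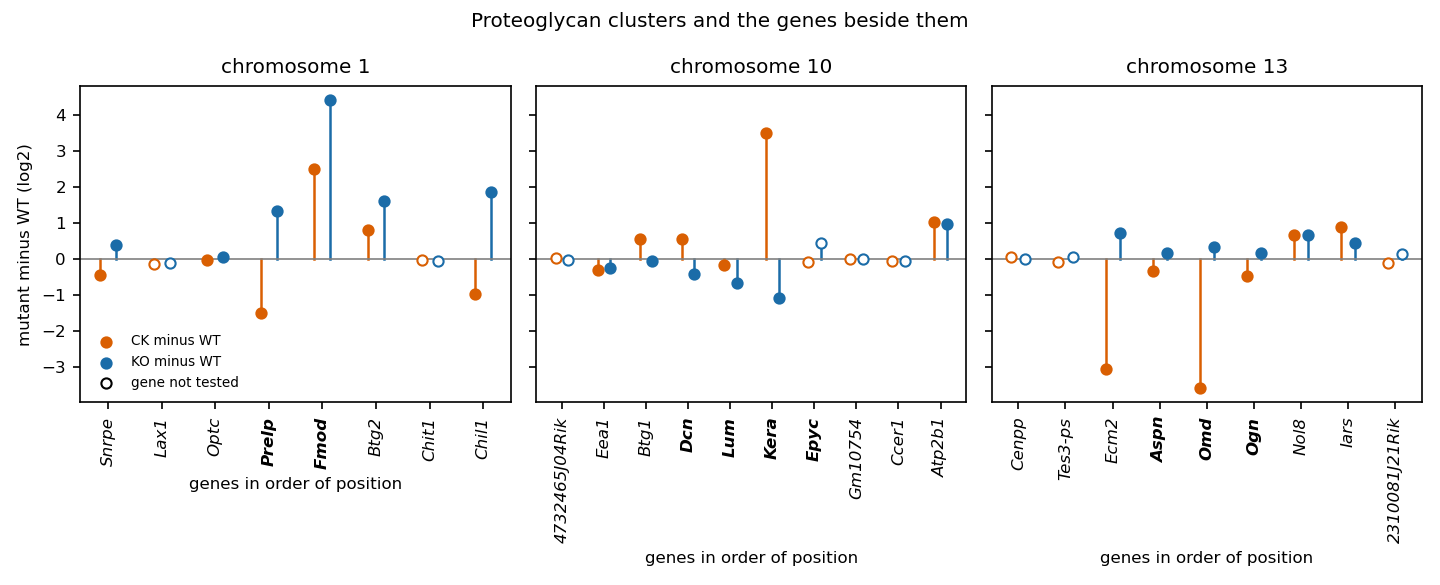
Difference of CK (orange) and KO (blue) from WT (y axis, log2) for the clustered genes (bold) and 3 genes on each side, in order of position on the chromosome (x axis, not to scale). Open points are genes that were not tested; on chromosome 13 the orange points lie below 0 from Ecm2 to Ogn and above 0 at Nol8 and Iars.

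Genes with the closest pattern were sought for the 4 members whose genotype means spanned at least 1, as the smallest root-mean-square difference over the 9 arrays after each gene's own mean was removed. Nearest to Kera was Grem1, a secreted BMP antagonist, at 0.16, followed by Dpt, the collagen-binding protein dermatopontin, at 0.34 and Tcim at 0.35. The WT, CK and KO means of Grem1 were 9.26, 12.61 and 8.07. Nearest to Omd were Cbr2, a carbonyl reductase, at 0.18, the tetraspanin Tspan18 at 0.23 and Ecm2, its neighbour on chromosome 13, at 0.25. Nearest to Prelp were Vnn1, a pantetheinase, at 0.13, the folate enzyme Aldh1l1 at 0.16 and the stress kinase Map3k5 at 0.18. Fmod had no such close match, with Gca, a calcium-binding protein, at 0.47, Mab21l2 at 0.51 and Mtss1 at 0.57. Among the tested members, the nearest to Prelp was Omd and the nearest to Omd was Prelp, at 0.86. Nearest patterns were not sought for the members spanning less than 1, so closer pairs may exist among those. Kera and Fmod were 1.58 and 1.72 from the members with the nearest pattern, Dcn and Prelp.

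**Figure D4:**
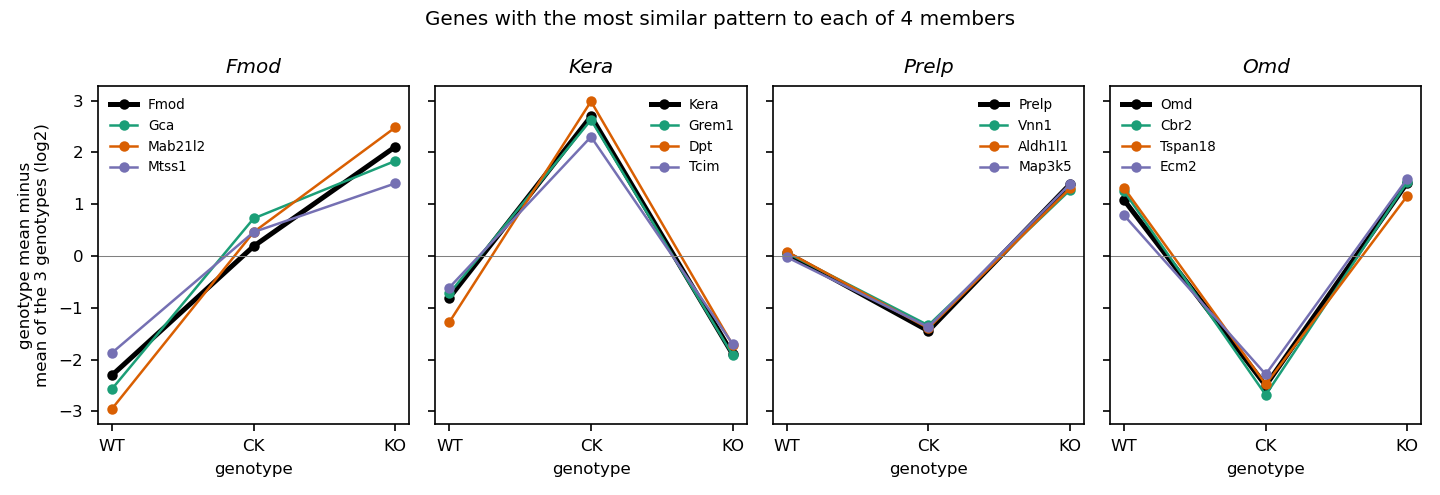
Genotype means relative to the mean of the 3 genotypes (y axis, log2) for Fmod, Kera, Prelp and Omd (black) and the 3 genes nearest to each (colours), by genotype (x axis). The root-mean-square difference over the 9 arrays is at most 0.18 for the genes nearest to Prelp and at least 0.47 for those nearest to Fmod.

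Most tested markers of cartilage were higher in KO, as Prelp, Fmod and Omd were, and some were lower in CK, as Prelp and Omd were. Of 12 tested cartilage markers limma called 11 higher in KO than in WT, 7 lower in CK than in WT (5 after median centring or repeated quantile normalization) and 12 lower in CK than in KO, against 26.6%, 32.1% and 32.7% of all genes. None was called, or had an unadjusted p under 0.05, in the opposite direction. Hapln1, which was too dim to be tested, read 7.77, 5.82 and 6.21 in WT, CK and KO, and 5 of the 12 (Acan, Matn1, Matn3, Col9a1 and Comp) passed the filter through KO, since their means over WT and CK lay below it; a marker that passed so had to be higher in KO. The summed signal of the 13 listed markers was 13.88 to 13.94 in WT, 11.76 to 11.83 in CK and 15.26 to 15.47 in KO on the log2 scale, with no overlap. That sum adds probes of unequal brightness; without Cnmd, a choice made after its values were seen, it was 12.21 to 12.44, 11.68 to 11.77 and 14.58 to 14.89, and the median difference of the tested markers in CK against WT was -0.20. Cnmd (chondromodulin) read 13.33, 7.30 and 13.85 in WT, CK and KO, Matn1 (matrilin) 6.42, 6.38 and 11.94, and Col2a1, the main cartilage collagen, 9.47, 9.04 and 12.67. The low CK value of Omd and Prelp and the high KO value of Prelp and Fmod ran beside those of this list. Aspn and Ogn were also called lower in CK. Other values went the other way. Fmod rose by 2.49 in CK, where no cartilage marker was called higher. Kera and Dcn were higher in CK than in WT (log2 differences 3.50 and 0.55) and lower in KO than in WT (-1.09 and -0.43). Lum was called lower in KO, with the limits given above. The part of this list in the members' values was not tested. Of the bone list, 4 of 5 genes had a mean under the filter level. The tested bone marker Alpl read 8.96, 7.50 and 7.62 in WT, CK and KO. The summed bone signal was 10.16 to 10.31 in WT, 8.68 to 8.87 in CK and 8.77 to 8.83 in KO. This sum was lower in both mutants than in WT, and Omd was lower in CK alone. The part of the bone list in the members' values was not tested. Of 3 tested tendon markers, 2 were higher and 1 lower in KO than in WT, and 3 were higher in CK than in WT. Scx, a tendon transcription factor, rose by 0.95 in KO (limma adjusted p = 0.000265) and 0.71 in CK (adjusted p = 0.00134). Mkx rose by 0.64 in KO (adjusted p = 1.47e-05) and 0.30 in CK (adjusted p = 0.00212). Egr1 fell by 0.36 in KO (adjusted p = 0.00655) and rose by 0.79 in CK (adjusted p = 2.28e-05). The means of Tnmd were 6.73 to 6.75, below the filter level.

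Of 5 tested SLRP and related genes outside the 10, 1 rose and 2 fell in KO (2 and 1 after median centring), and 2 rose and 1 fell in CK. That is 3 of 5 in each, near the 51.2% and 62.9% of all genes called. Podn encodes podocan, and its levels in WT, CK and KO were 10.89 ± 0.04, 11.28 ± 0.20 and 8.04 ± 0.08 (SD, n = 3). It fell by 2.86 in KO against WT (SE 0.09, limma adjusted p = 1.67e-09). Podnl1, the podocan-like gene, rose by 1.94 in CK (SE 0.08, adjusted p = 1.06e-08).

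Among the collagens that SLRPs bind, 6 of 19 tested genes rose and 8 fell in KO against WT (8 and 5 after median centring, 8 and 7 after repeated quantile normalization), with a median of -0.02, against 26.6% and 24.6% of all genes and a median of 0.01. The largest changes were in Col2a1, up by 3.2, Col9a1, up by 2.12, and Col11a1, up by 1.72, all of cartilage fibrils, and in Col14a1, a fibril surface collagen, which fell by 2.30. The WT arrays of Col14a1 spread widely, with an SD of 0.79. Col3a1 read 11.95, 11.36 and 11.02 in WT, CK and KO. In CK against WT 6 rose and 4 fell, led by Col14a1, which fell by 2.47, and Col12a1, which rose by 1.48, against 30.7% and 32.1% of all genes. Col1a1, the main chain of the fibrils that Fmod and Lum bind, read 12.91 ± 0.20, 13.08 ± 0.10 and 12.66 ± 0.06 (SD, n = 3). Of 19 tested genes for fibril assembly and cross-linking, 9 rose and 6 fell in KO (10 and 6 after median centring), against 26.6% and 24.6% of all genes, and 8 rose and 3 fell in CK (10 and 3 after median centring), against 30.7% and 32.1%. The lysyl oxidase gene Loxl4 and the procollagen processing enhancer Pcolce2 rose in both mutants, by 2.28 each in KO and by 1.65 and 2.16 in CK. Loxl3 fell by 1.11 in KO and fell by 1.86 in CK, and Dpt rose by 4.26 in CK.

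Of 19 tested genes for enzymes of chondroitin and dermatan sulfate synthesis, which build the sugar chains of several members, 8 rose and 2 fell in KO against WT (12 and 2 after median centring, 11 and 2 after repeated quantile normalization), against 26.6% and 24.6% of all genes. In CK against WT 4 rose and 10 fell (4 and 9 after median centring), against 30.7% and 32.1%. In CK against KO limma called 0 higher (0 also at an unadjusted p under 0.05) and 10 lower, against 29.5% and 32.7% of all genes. Csgalnact1, which starts chondroitin chains, rose by 2.07 in KO and 2.20 in CK, and the xylosyltransferase Xylt1, which starts the linker on the protein, rose by 1.11 in each. Dse, the epimerase that makes dermatan sulfate, read 11.62, 11.13 and 12.24 in WT, CK and KO and was lower in CK than in KO (log2 difference -1.11, limma adjusted p = 1.45e-08). Of 10 tested genes for keratan sulfate chains, 3 rose and 3 fell in KO and 3 rose and 5 fell in CK, against the same shares. The sulfotransferase Chst2 fell by 1.85 in KO and fell by 1.43 in CK, and the sialyltransferase St3gal1 fell by 3.07 in KO and fell by 1.21 in CK, while B3gnt2, which extends the chain, rose by 1.49 in KO.

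Of 20 tested genes for receptors and growth factors that SLRPs bind, 7 rose and 8 fell in KO (7 and 6 after median centring), and 5 rose and 12 fell in CK with a median of -0.74, against -0.01 over all genes; the shares of all genes that rose and fell were 26.6% and 24.6% in KO and 30.7% and 32.1% in CK. Igf1 read 11.30, 9.29 and 7.97 in WT, CK and KO, and Tlr2, a receptor for biglycan, 10.14, 8.94 and 9.02. Met, a receptor for decorin, rose by 2.41 in CK (SE 0.09, limma adjusted p = 5.08e-09), and the collagen receptor subunit Itga2 fell by 2.53. Of 12 tested proteases and inhibitors, 2 rose and 8 fell in KO (3 and 7 after median centring), against 26.6% and 24.6% of all genes, and 6 rose and 5 fell in CK (6 and 4 after median centring), against 30.7% and 32.1%. Mmp13, a collagenase that can cleave fibromodulin, read 7.79, 12.90 and 6.98 in WT, CK and KO, with an SD of 0.93 in KO. The serine protease Htra1 read 9.59, 12.75 and 10.97, with an SD of 0.62 in WT. Mmp3 read 13.13, 12.95 and 6.69, with an SD of 1.05 in KO. The aggrecanase Adamts5 rose by 1.91 in KO (limma adjusted p = 2.17e-09). The lists were chosen with earlier results of these data known.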

How the data were processed

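The authors deposited log2 expression values of 34760 probe sets on 9 arrays, for which the submitters' processing notes name RMA and affy; no versions or filters are named there. The deposited digit strings (10 to 15 digits) had lost their decimal mark. With the mark after digit 1, strings starting with 1 reached 1.44 and all others began at 4.28, so the former were read as 10 or more, giving values from 4.28 to 14.4. The platform annotation gave 21640 probe sets 1 symbol, 1321 several and 11799 none, updated through a RefSeq gene table (GRCm38.p6) used for names and gene order. The brightest probe set stood for a gene.

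The 11962 genes whose mean reached the 40th percentile of gene means were fitted in limma 3.58.1 (R 4.3.3) to 1 mean per genotype on 9 arrays, 6 residual and 4.1 prior degrees of freedom, and Benjamini-Hochberg adjustment over all tested genes at 0.05. The fit was tested on simulated data. The number of arrays limits the precision; the median SD over tested genes was 0.0709 for WT, 0.0849 for CK and 0.0673 for KO. Named genes were the members, Cdkn1b, the 3 nearest patterns of members spanning at least 1, 3 flanking genes per side, and up to 4 called genes of each related list with the largest differences. Col1a1 and the cell type markers were named besides these. The members, lists and rules were chosen with earlier results of these data known. Alternatives were other filters, mean of probe sets, median centring, repeated quantile normalization, another variance model, array weights, fits of 6 arrays, the replicate number as a block, stricter thresholds and leaving out each array.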

Additional observations from a re-analysis of the deposited data

How the results depend on the processing

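With the replicate number as a block, limma called 6 of the tested members in KO versus WT, 7 in CK versus WT and 7 in CK versus KO, the same counts as without it. Deviations of same-numbered arrays correlated at 0.05, 0.25 and 0.36 between WT and KO and from -0.3 to 0.05 otherwise, so the numbers were not treated as pairing; whether these arrays share more than a number is not known. Leaving out each array in turn gave 5 to 7, 7 to 7 and 7 to 8 members called. Requiring a difference of at least 1 on the log2 scale left 3, 4 and 4, by construction. Over all refits of the members' differences, 485 kept call and sign, 20 gained a call, 5 lost it (Lum in KO versus WT) and 3 changed sign. The 485 include the differences of Epyc with no filter, although Epyc had no earlier call to keep. Fmod, Kera, Prelp, Omd and Dcn kept direction and an adjusted p under 0.05 in all 3 comparisons in every refit that tested them, but with a required difference of at least 1, Dcn was called in none and Omd not in KO versus WT. Sign changed only in differences not called: Bgn in KO versus WT (0.00) and CK versus KO (-0.01) under median centring, and Lum in CK versus WT without CK replicate 3 (0.01, with a range of -0.38 to 0.01 over the arrays left out). Array weights called 9 of 9 members in KO versus WT. Median centring, repeated quantile normalization and the other variance model called 8 of 9 each. Of all 11962 genes, these refits called 7489, 7224, 6506 and 6138 in the same order, against 6129 without them. With no filter, 7, 7 and 8 of 10 members were called. Epyc was among them in KO versus WT (log2 difference 0.45, limma adjusted p = 9.14e-05) and in CK versus KO (-0.53, adjusted p = 2e-05), with all its values below the filter level. A low value may be background, since no detection calls were used here, and quantile normalization hides any change in total RNA per cell.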
